A study of Canis lupus familiaris with 16 samples.

Results

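The 9 genes described here are the retinoid X receptors *RXRA*, *RXRB* and *RXRG*, the retinoic acid receptors *RARA*, *RARB* and *RARG*, the retinoic acid carrier *CRABP2* and the retinaldehyde dehydrogenases *ALDH1A1* and *ALDH1A2*. They were taken by name from 41818 counted genes because the study lists *RXRG* as lower in fibrosarcoma, and the others were added as the rest of the pathway. The study sequenced RNA extracted from archived FFPE (formalin-fixed, paraffin-embedded) blocks of 16 canine soft tissue sarcomas and compared gene levels between tumor types. The molecular identity in the labels gives 4 fibrosarcomas, called FS, 6 peripheral nerve sheath tumors, called PNST, and 6 perivascular wall tumors, called PWT. The FS were S1-02, S1-11, S1-12 and S2-06, from a Beagle, a Golden Retriever, a Whippet and another Golden Retriever, with ages from 9 to 13 years. The PNST were S1-03, S1-04, S1-05, S1-09, S1-10 and S2-07, from a Boxer, Standard Poodle (S1-04 and S1-05), an Australian Shepherd, an Australian Cattle Dog and an American Cocker Spaniel, with ages from 8 to 13 years. The PWT were S1-07, S2-03, S2-04, S2-08, S2-09 and S2-11, from a Plott hound mix, a Golden Retriever, a Tibetan Terrier, a Great Pyrenees, a mixed breed dog and a Labrador Retriever, with ages from 2 to 14 years. All were spontaneous tumors from a diagnostic archive, with no normal tissue among the samples, so each type could only be compared with the others. The dog of S1-03 had received chlorambucil and that of S2-11 radiation before the tissue was taken. By histology, S1-10 was a PWT and S2-08 was an FS. The study moved these 2 tumors to their final types using gene expression, so the final types are not independent of the counts compared here. The labels of S1-04 and S1-05 are identical, and the tumors may come from 1 dog.

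Retinoic acid is made from vitamin A in steps. Retinol is oxidized to retinaldehyde by enzymes such as RDH10, and retinaldehyde is oxidized to retinoic acid by the ALDH1A enzymes. CRABP2 carries retinoic acid to the receptors in the nucleus, and CYP26 enzymes break it down. The retinoic acid receptors bind DNA as pairs with a retinoid X receptor, and retinoid X receptors also pair with the vitamin D, thyroid hormone, PPAR and liver X receptors. In connective tissue and skin, retinoic acid is known as a regulator of differentiation and growth.

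Between 507728 counts (S1-12) and 4311876 counts per tumor fell on genes, which was 22.9% to 30.6% of the reads listed. FS totals ranged from 507728 to 2781899, PNST totals from 1545839 to 4311876 and PWT totals from 726025 to 2234165. Levels are given as CPM, a gene's reads scaled to a common library total with TMM factors, and serve to compare tumors for 1 gene, not genes with each other. The prefix S1 or S2 of the tumor names, a possible sequencing group, was unevenly spread, with 3 S1 tumors of 4 FS, 5 of 6 PNST and 1 of 6 PWT. Each S1 tumor had 3 run columns and each S2 tumor had 1. PNST and PWT thus differ mostly in prefix too, and a difference between them cannot be cleanly told apart from one between prefixes. Summed CPM of 11 epidermal markers was 905 to 1663 in S1-02, S1-12, S1-04, S1-05 and S2-03, with all 11 detected, and 5.06 to 118 in the other 11 tumors. Of the Schwann cell markers that would define PNST, *SOX10* ranged from 2.37 to 4.94 CPM in PNST and *S100B* from 1.51 to 78.1 CPM. The pericyte markers *RGS5*, *CSPG4* and *PDGFRB* were detected in every tumor of every type. In bulk tumor RNA, fewer cells of a type and less RNA per cell cannot be told apart.

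*RXRG*, the retinoid X receptor with the most restricted tissue distribution, was low in each FS. Its level was 9.25 CPM in S1-02, 32.2 CPM in S1-11, 6.58 CPM in S1-12 and 45.4 CPM in S2-06, from 26, 59, 4 and 97 counts. In PNST, the lowest level was 202 CPM (S1-10), the median 245 CPM and the highest 475 CPM (S1-05). In PWT, the lowest was 75.8 CPM (S2-03), the median 291 CPM and the highest 452 CPM (S1-07). The FS range ended at 45.4 CPM and the range of the other 12 tumors began at 75.8 CPM, so the groups did not overlap. Means were 23.3 ± 18.6 (SD, n = 4) CPM in FS, 281 ± 100.4 (SD, n = 6) in PNST and 287 ± 134 (SD, n = 6) in PWT. The fitted log2 fold change of FS against both other types was -3.54 (SE 0.53), and since *RXRG* was chosen for this difference it is a description with no test. With tumors grouped by histology, where S2-08 at 343 CPM counts as an FS, the log2 fold change was -1.65 (SE 0.68). Among tumors with the prefix S1 alone it was -4.17 (SE 0.59), and without the 5 tumors with high epidermal markers it was -2.87 (SE 0.44).

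PNST and PWT, which the choice of *RXRG* did not use, did not differ past the threshold in its level. The log2 fold change of PNST against PWT was -0.13, with a 95% interval from -1.01 to 0.74 (edgeR quasi-likelihood test, adjusted p = 0.884). Within PWT, S2-03 stood below the other 5 tumors, which lay between 230 and 452 CPM. S2-03 was also the PWT with the highest epidermal marker sum, at 1312 CPM, and the part of these cells in its *RXRG* level was not tested.

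**Figure D1:**
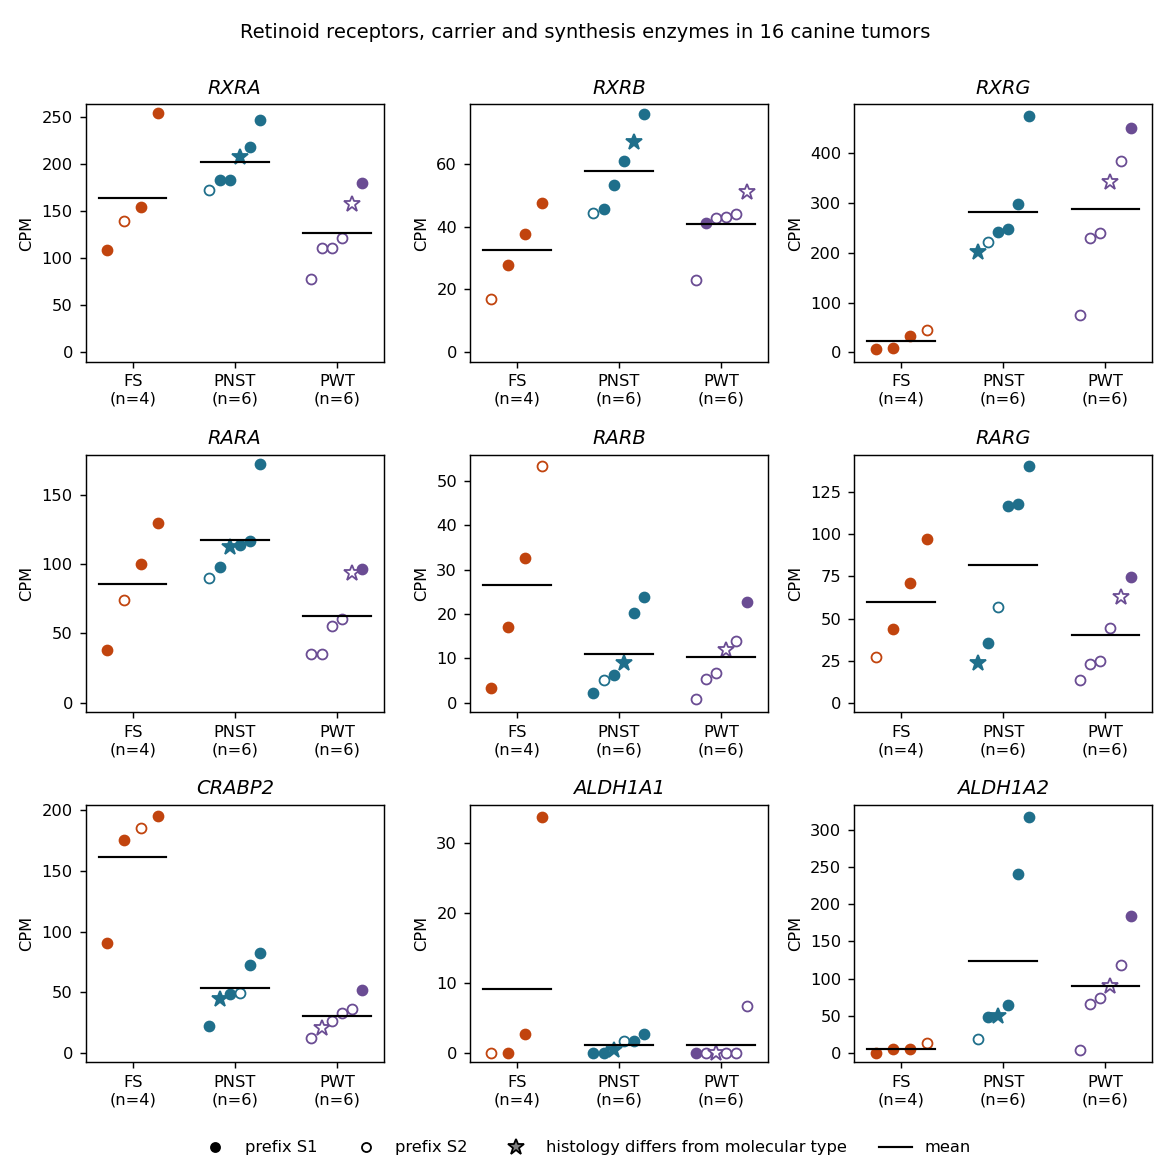
Level in CPM (vertical axis, from 0) of each of the 9 genes in 4 FS, 6 PNST and 6 PWT, with 1 symbol per tumor and a line at the mean of each type. Filled symbols are tumors with the prefix S1, open symbols have the prefix S2, and stars are S1-10 and S2-08, whose histology differs from their molecular type. *RXRG*, which was chosen for its difference in FS, and *CRABP2* are the genes in which the 4 FS do not overlap the other 12 tumors. Of all genes tested, 3.16% have no overlap.

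*RXRA*, another retinoid X receptor, was detected in every tumor. In FS it was 109 CPM in S1-02, 154 CPM in S1-11, 255 CPM in S1-12 and 139 CPM in S2-06. In PNST the lowest level was 172 CPM (S2-07), the median 196 CPM and the highest 248 CPM (S1-05), and in PWT the lowest was 78.1 CPM (S2-03), the median 117 CPM and the highest 181 CPM (S1-07). All 3 types overlapped. The log2 fold change of FS against both others was 0.07, with a 95% interval from -0.51 to 0.64 (edgeR, adjusted p = 0.917). PWT had the lowest mean, at 127 ± 36.7 (SD, n = 6) CPM against 202 ± 28.2 (SD, n = 6) in PNST. That difference, a log2 fold change of PNST against PWT of 0.57 (interval 0.06 to 1.08), had an adjusted p of 0.207 with edgeR and was not called. S1-07, the highest PWT, is the only PWT with the prefix S1, and the S2 PWT had a mean of 116 CPM. Type and prefix cannot be cleanly told apart here.

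*RXRB*, the third retinoid X receptor, was 27.8 CPM in S1-02, 47.5 CPM in S1-11, 37.8 CPM in S1-12 and 16.8 CPM in S2-06. PNST lay between 44.5 and 76.0 CPM and PWT between 23.2 (S2-03) and 51.0 CPM (S2-08). FS had the lowest mean (32.5 ± 13.2 CPM, SD, n = 4) and PNST the highest (57.8 ± 12.4 CPM, SD, n = 6), with overlapping ranges. FS against both others had a log2 fold change of -0.57, with an interval from -1.15 to 0.02 and an edgeR adjusted p of 0.210. Neither *RXRA* nor *RXRB* passed the test in any of the 6 comparisons.

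The share of reads on the 3 *RXR* genes that fell on *RXRG* is a ratio within a tumor, which does not depend on how totals are scaled. It counts reads, not transcripts, since gene lengths were not used. In FS, *RXRG* held 6.34% of these reads in S1-02, 13.8% in S1-11, 2.20% in S1-12 and 22.5% in S2-06. The share in S1-12 rests on 182 reads and has an exact binomial 95% interval from 0.602% to 5.53%. In PNST it ranged from 42.3% (S1-10) to 61.2% (S1-05), and in PWT from 42.8% (S2-03) to 71.4% (S2-04). All FS thus lay below all other tumors in this share as well, which uses the *RXRG* reads on which the gene was chosen and is given as a description. *RXRA* held most of the reads in each FS, 66.0% to 85.2%, against 20.7% to 44.1% in the other tumors. Summed over the 3 genes, levels were 146 to 299 CPM in FS, 439 to 776 CPM in PNST and 177 (S2-03) to 674 CPM in PWT. Summed over *RXRA* and *RXRB* alone, FS means of 197 ± 69.5 (SD, n = 4) CPM lay between those of PNST (260 ± 35.2, SD, n = 6) and PWT (168 ± 43.4, SD, n = 6). In S2-03, the PWT lowest in all 3 *RXR* genes, the share of *RXRG* was near that of S1-10, while its summed level was the lowest of the 12 PNST and PWT.

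**Figure D2:**
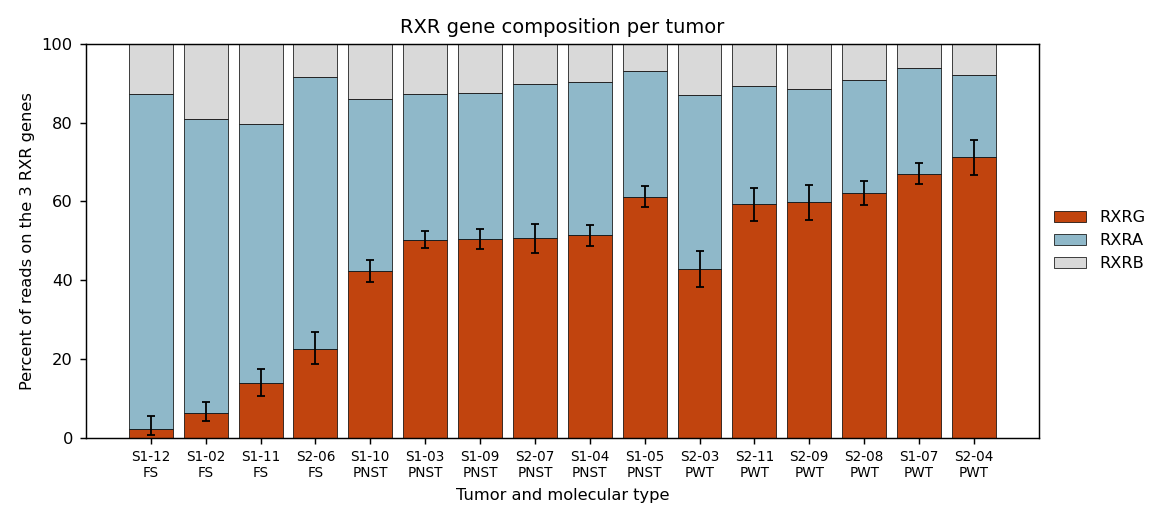
Percent of the reads on the 3 *RXR* genes (vertical axis, 0 to 100) that fell on *RXRG*, *RXRA* and *RXRB* in each of the 16 tumors, ordered by type and by the share of *RXRG*. Error bars are exact binomial 95% intervals for *RXRG* and cover counting error only. The 4 FS lie between 2.20% and 22.5% *RXRG*, and the other 12 tumors between 42.3% and 71.4%.

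Of the retinoic acid receptors, *RARA* is the most widely expressed, and *RARB* is itself a known target of retinoic acid. *RARA* was 38.1 CPM in S1-02, 100.4 CPM in S1-11, 130 CPM in S1-12 and 73.9 CPM in S2-06. PNST ranged from 89.6 to 172 CPM (S1-09) and PWT from 35.1 (S2-03) to 96.2 CPM (S1-07). FS lay across both ranges, and its log2 fold change against both others was -0.01, with an interval from -0.76 to 0.74 (edgeR, adjusted p = 0.989). PNST and PWT overlapped in S1-07 and S2-08, which at 96.2 and 93.4 CPM lay above S2-07, the lowest PNST. The log2 fold change of PNST against PWT was 0.80 (interval 0.15 to 1.45), which did not pass the test (edgeR, adjusted p = 0.172). S1-07 is the only PWT with the prefix S1 and S2-07 the only PNST with the prefix S2, so type and prefix cannot be cleanly told apart.

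*RARB* had few counts in most tumors and a wide spread within types. It was 17.1 CPM in S1-02, 32.7 CPM in S1-11, 3.29 CPM in S1-12 and 53.3 CPM in S2-06. PNST ranged from 2.16 (S1-09) to 23.8 CPM (S1-04) and PWT from 0.727 (S2-11) to 22.6 CPM (S1-07). S1-11 and S2-06 lay above all other tumors, and S1-12 lay among the lowest. The log2 fold change of FS against both others was 1.39 (SE 0.58), with an unadjusted p of 0.0261 and an edgeR adjusted p of 0.131. The size depended on which tumors were fitted. Without S2-06 the log2 fold change was 0.83 (edgeR, adjusted p = 0.473), and with prefix S1 alone it was 0.52 (edgeR, adjusted p = 0.726). Without the 5 tumors with high epidermal markers, which leaves S1-11 and S2-06 as the FS, it was 2.39 and passed the threshold (edgeR, adjusted p = 0.0349).

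*RARG*, the receptor best known from skin, was 43.8 CPM in S1-02, 70.9 CPM in S1-11, 97.0 CPM in S1-12 and 27.1 CPM in S2-06. PNST ranged from 23.4 (S1-10) to 141 CPM (S1-05) and PWT from 13.2 (S2-09) to 74.7 CPM (S1-07). The types overlapped throughout, and FS against both others had a log2 fold change of 0.02 with an interval from -1.06 to 1.09 (edgeR, adjusted p = 0.990). The 3 highest PNST levels, 117 to 141 CPM, were in S1-03, S1-04 and S1-05. Epidermal markers were high in S1-04 and S1-05 but summed to 13.2 CPM in S1-03. Summed over the 3 *RAR* genes, levels were 172 ± 57.9 (SD, n = 4) CPM in FS, 210 ± 52.2 (SD, n = 6) in PNST and 113 ± 53.7 (SD, n = 6) in PWT.

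*CRABP2*, which brings retinoic acid to its receptors, rose in FS. It was 91.1 CPM in S1-02, 195 CPM in S1-11, 176 CPM in S1-12 and 185 CPM in S2-06, from 107 to 396 counts. In PNST it was 82.2 CPM in S1-03, 72.9 CPM in S1-04, 48.6 CPM in S1-05, 21.9 CPM in S1-09, 44.6 CPM in S1-10 and 49.6 CPM in S2-07. In PWT it was 52.1 CPM in S1-07, 12.7 CPM in S2-03, 26.6 CPM in S2-04, 20.4 CPM in S2-08, 33.3 CPM in S2-09 and 36.3 CPM in S2-11. Each FS lay above each of the other 12 tumors, with S1-02 closest to them. Of all genes tested, 3.16% had FS ranges that did not overlap the other 12 tumors. Means were 162 ± 47.9 (SD, n = 4) CPM in FS, 53.3 ± 21.5 (SD, n = 6) in PNST and 30.2 ± 13.7 (SD, n = 6) in PWT. FS against both others was 4.02-fold higher, a log2 fold change of 2.01 (SE 0.33, edgeR adjusted p = 0.00117). The call held with tumors grouped by histology (log2 fold change 1.67, adjusted p = 0.0434), within the tumors of prefix S1 (1.64, adjusted p = 0.0324) and without the 5 tumors with high epidermal markers (2.26, adjusted p = 0.00367), all with edgeR. Against PNST alone the log2 fold change was 1.70 (SE 0.36, adjusted p = 0.00913) and against PWT alone 2.42 (SE 0.37, adjusted p = 0.00101). With prefix S1 alone, the difference from PNST was 1.64 with an adjusted p of 0.0619. Grouped by histology, it was 1.37 against PNST (adjusted p = 0.266) and 1.97 against PWT (adjusted p = 0.0703), all with edgeR. The histology fit called 0 and 5 of all 15408 genes in these comparisons.

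PWT had the lowest *CRABP2* mean. The log2 fold change of PWT against both others was -1.63 (SE 0.47), with an edgeR adjusted p of 0.0649, which is not called, and DESeq2 called it (-1.65, adjusted p = 0.0108). PNST against PWT differed by 0.72 on the log2 scale (interval 0.01 to 1.43, edgeR adjusted p = 0.250), a comparison of mostly S1 with mostly S2 tumors. Of 12 pericyte and smooth muscle markers, 3 (*ACTA2*, *CNN1* and *MCAM*) rose in FS, beside 9.46% of all genes called in that comparison, and the sum over the list was 660 to 1943 CPM in FS, 422 to 979 CPM in PNST and 392 to 741 CPM in PWT. The 8 fibroblast markers went both ways, with a median log2 fold change of -0.32 in FS. Of these, *COL1A1* and *LUM* rose, while *DCN* at -1.38 and *PDGFRA* at -0.89 were not called (edgeR adjusted p = 0.107 and 0.124). *PDGFRA* was called lower in FS against PNST (-1.18, edgeR adjusted p = 0.0498). The sums over the fibroblast list, of which collagen genes are a large part, were 10901 to 63681 CPM in FS, 13200 to 30840 CPM in PNST and 7085 to 14504 CPM in PWT. Their part in the *CRABP2* levels was not tested.

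*ALDH1A2*, the main retinoic acid-making enzyme of the embryo, fell in FS. It was 5.34 CPM in S1-02, 4.93 CPM in S1-12 and 13.1 CPM in S2-06, from 15, 3 and 28 counts. In S1-11 there were 0 counts, which allows up to 1.64 CPM at 3 counts. PNST levels were 317 CPM in S1-03, 48.9 CPM in S1-04, 241 CPM in S1-05, 64.8 CPM in S1-09, 49.5 CPM in S1-10 and 18.3 CPM in S2-07. PWT levels were 185 CPM in S1-07, 4.48 CPM in S2-03, 119 CPM in S2-04, 89.6 CPM in S2-08, 65.8 CPM in S2-09 and 74.1 CPM in S2-11. All FS lay below all PNST and below 5 of the 6 PWT, and S2-03 overlapped them. FS against both others had a log2 fold change of -4.10 (SE 0.98, edgeR adjusted p = 0.0119). Within prefix S1 it was -5.41 (adjusted p = 0.0177), again with edgeR. The call was lost with histology groups (-2.19, edgeR adjusted p = 0.266) and without the 5 tumors with high epidermal markers, at a nearly equal fold change (-3.97, edgeR adjusted p = 0.0574).

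Against PNST alone the log2 fold change of *ALDH1A2* in FS was -4.27 (SE 1.04, edgeR adjusted p = 0.0186). Against PWT alone it was -3.89 (SE 1.03, adjusted p = 0.0197), and without S1-11 it was -3.46 (adjusted p = 0.0542), both with edgeR. PNST and PWT themselves varied widely, with means of 123 ± 124 (SD, n = 6) and 89.6 ± 59.9 (SD, n = 6) CPM. Their difference was 0.37 on the log2 scale, with an interval from -1.15 to 1.90 (edgeR, adjusted p = 0.803).

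*ALDH1A1*, the retinaldehyde dehydrogenase best known from liver and from stem cell-like tumor cells, was the member that did not pass the filter of 10 counts in 4 tumors. It had 95 counts (33.8 CPM) in S1-02 and 18 counts (6.73 CPM) in S2-03. S1-04 had 8 counts, S1-11 had 5, S1-05 and S2-07 had 3 each and S1-10 had 1. The other 9 tumors had 0 counts, which allows up to 0.877 CPM (S1-03) to 4.93 CPM (S1-12) at 3 counts. No type was set apart by this gene, since the tumors with more than 10 counts were 1 FS and 1 PWT. Both had high epidermal marker sums (1663 and 1312 CPM) and the 2 highest macrophage marker sums (1218 and 704 CPM), and the part of these cells was not tested.

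*ALDH1A2* and *RXRG* varied together across tumors. Over the 16 tumors, Pearson's r of log2 CPM was 0.826 and Spearman's rho was 0.900, and over the 12 PNST and PWT r was 0.890. Without S2-03, which was lowest of these 12 in both genes, r over the remaining 11 was 0.752. The points share libraries of 2 prefixes and differ in depth, and r is given as a description. *RXRA* and *RARA* had an r of 0.892 over 16 tumors and 0.889 over the 12 PNST and PWT. *CRABP2* and *RXRG* had an r of -0.602 over 16 tumors and 0.470 over the 12 PNST and PWT. Without S2-03 it was -0.03 over the remaining 11, so the positive value rests on that tumor.

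**Figure D3:**
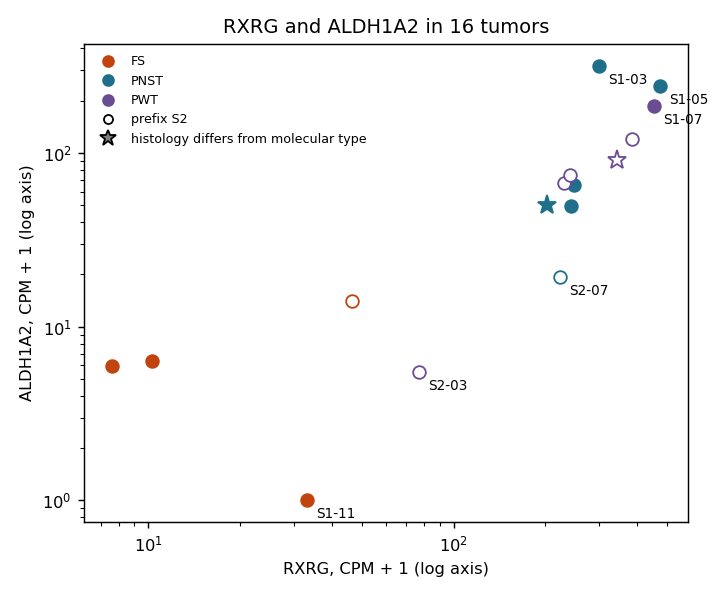
*ALDH1A2* against *RXRG* in the 16 tumors, both in CPM + 1 on log axes, with color for the type, open symbols for prefix S2 and stars for S1-10 and S2-08. The FS lie at low levels of both genes, S2-03 is the PWT nearest to them, and S1-03, S1-05 and S1-07 have the 3 highest *ALDH1A2* levels.

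In the comparison of FS with both other types, 3 of the 8 members tested were called, which needed a log2 fold change beyond 1 in either direction and an adjusted p under 0.05. *CRABP2* rose and *ALDH1A2* fell, and the third was *RXRG*, on which the choice rests. Of all 15408 genes tested, 9.46% were called, 890 higher and 567 lower. Both pairwise comparisons called the same 3 members, where 7.13% of all genes were called for FS against PNST and 11.2% for FS against PWT. These 3 comparisons share the 4 FS. PNST against both others called 0 of 8 members and 0% of all genes with edgeR, with 2 members (*RXRB*, 0.53, and *RARA*, 0.61) and 2415 genes at an unadjusted p under 0.05. DESeq2 also called 0 members there, though it called 291 genes. PWT against both others called 0 of 8 members with edgeR, against 2.12% of all genes. There, *RXRA* (-0.50), *RARA* (-0.67) and *CRABP2* (-1.63) had an unadjusted p under 0.05 with edgeR, as did 3449 of all 15408 genes. DESeq2 called *CRABP2*. PNST against PWT called 0 of 8 members with edgeR and 0 with DESeq2, with 0.169% of all genes called by edgeR. In this comparison *RXRA*, *RARA* and *CRABP2* had an unadjusted p under 0.05 with edgeR, as did 3013 of all 15408 genes. The median log2 fold change of the members was 0.00 for FS, 0.53 for PNST and -0.59 for PWT, beside 0.00, -0.06 and -0.08 over all genes tested.

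**Figure D4:**
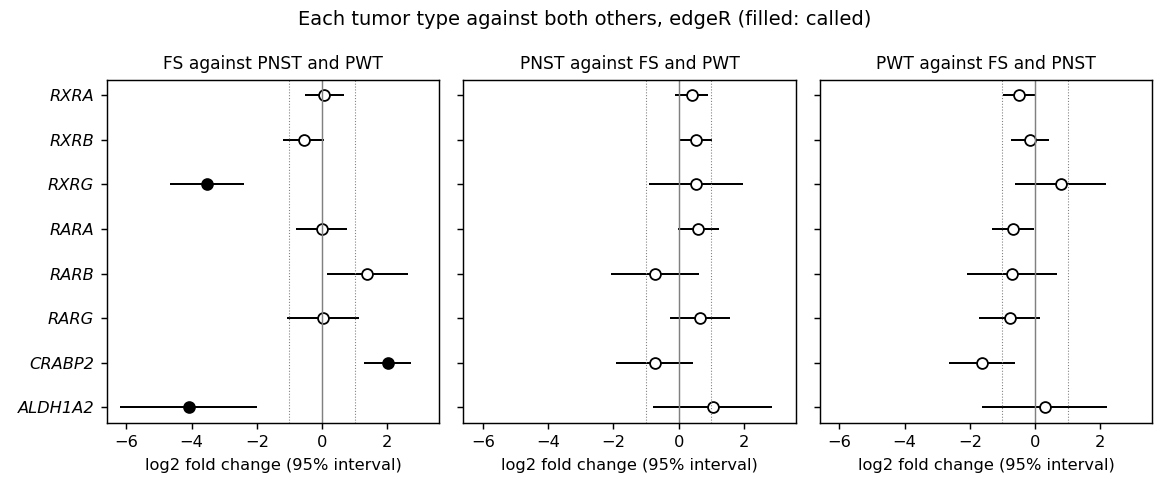
Log2 fold change (horizontal axis) with its 95% interval for the 8 members tested, in the comparison of each type with both others. Filled points are called, dotted lines mark a log2 fold change of 1 in either direction, and for FS these are *RXRG*, *CRABP2* and *ALDH1A2*. *RXRG* was chosen for its difference in FS and is shown as a description.

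The genes whose log2 CPM followed *RXRG* most closely over the 16 tumors were *HID1* (Pearson's r = 0.958), *CLEC3B* (r = 0.944), *PSD2* (r = 0.942), *EPB41L2* (r = 0.937) and *LOC102155496* (r = 0.937). This ranking uses the low FS levels on which *RXRG* was chosen, so a gene that is low in FS can rank high. All r with nearest genes include the difference between FS and the other tumors and are given as a description. *CLEC3B*, which codes for tetranectin, a plasminogen-binding protein, was 1.64 to 15.4 CPM in FS and 52.3 to 229 CPM in the other tumors. For *CRABP2* they included *LOC111091987* (r = 0.882), *ANP32E* (r = 0.880), *PTGFRN* (r = 0.876) and *CDCA3* (r = 0.874). *CDCA3*, a cell division gene, was 4.63 to 19.6 CPM in FS and 0 to 4.68 CPM in the others. For *ALDH1A2* they were *ME3* (r = 0.876), *NIPAL3* (r = 0.866), *FBLL1* (r = 0.863), *MAP1B* (r = 0.863) and *PIGV* (r = 0.858). *MAP1B*, a microtubule-associated protein of neurons, was 352 to 667 CPM in FS and 618 to 2732 CPM in the others.

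Of 69 other genes of retinoid synthesis, transport, breakdown, receptor partners, coregulators and targets, 67 were in the table and 44 passed the filter. In FS, 4 of the 44 rose and 3 fell, beside 9.46% called over all genes, and their median log2 fold change was 0.19 against 0.00 over all genes. Both genes called in the synthesis and storage list (13 tested) fell. *RDH10*, which makes retinaldehyde from retinol, was 13.2 CPM in S1-02, 30.0 CPM in S1-11, 19.7 CPM in S1-12 and 43.0 CPM in S2-06, against 33.6 to 135 CPM in PNST and 40.7 to 94.5 CPM in PWT. S2-06 reached the lower tumors of both other types, and the log2 fold change was -1.35 (SE 0.37, edgeR adjusted p = 0.0235). Without S1-02, S1-11 or S1-12 in turn the adjusted p of *RDH10* was 0.0762, 0.0575 and 0.0605 with edgeR, at log2 fold changes of -1.11, -1.41 and -1.28. *DHRS9*, another retinol-oxidizing enzyme, was 261, 52.9, 24.7 and 430 CPM in S1-02, S1-11, S1-12 and S2-06. Every other tumor lay higher, from 516 to 1439 CPM, and the log2 fold change was -2.28 (SE 0.56, edgeR adjusted p = 0.0141). *ALDH1A3*, the third enzyme of the ALDH1A family, ranged from 0 (S1-12) to 152 CPM (S2-06) within FS alone and had a log2 fold change of 0.20 (edgeR, adjusted p = 0.928).

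*CYP26B1*, which breaks down retinoic acid, rose in FS, and 1 tumor set much of the size. It was 94.3 CPM in S1-02, 182 CPM in S1-11, 995 CPM in S1-12 and 158 CPM in S2-06. PNST lay between 56.7 and 143 CPM and PWT between 39.2 and 91.7 CPM, so S1-02 fell inside the PNST range. The log2 fold change was 2.26 (SE 0.44, edgeR adjusted p = 0.00302), and 0.86 without S1-12 (edgeR adjusted p = 0.0961). *CYP26A1* did not pass the filter and was at 0 counts in all 4 FS, which at 3 counts allows up to 4.93 CPM in S1-12. It had 0 counts in 10 of the 16 tumors and at most 4 counts in any, so it set no type apart.

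Of the 4 carriers tested, 0 were called in FS against both others with edgeR. Only 1, *CRABP1*, had an unadjusted p under 0.05, beside 3915 of all 15408 genes. *CRABP1*, the second cellular retinoic acid carrier, was 904 CPM in S1-11 and 2.13 to 11.5 CPM in the other FS. In PNST it was 285 CPM in S1-09 and 5.92 to 21.1 CPM in the rest, and in PWT it was 0.374 to 22.5 CPM. It was called for FS against PWT (log2 fold change 4.90, SE 1.48, edgeR adjusted p = 0.0372), a difference in which S1-11 stood apart from the other 3 FS. *RBP4*, the retinol carrier of plasma, had a log2 fold change in FS of -0.02 (SE 0.77) and an edgeR adjusted p of 0.991. *STRA6*, the receptor that takes up retinol from RBP4, had at most 3.29 CPM in any tumor and was not tested.

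Of the 9 coregulators, *NCOA1*, a coactivator, and *NRIP1*, a corepressor that binds ligand-bound receptors, rose in FS, beside 9.46% of all genes called. *NCOA1* was 49.8, 55.6, 42.8 and 85.1 CPM in S1-02, S1-11, S1-12 and S2-06 against 15.2 to 43.4 CPM elsewhere, with S1-12 inside that range. Its log2 fold change of 1.00 (SE 0.23, edgeR adjusted p = 0.00997) lay on the threshold of size, and 14 of 28 alternatives took it off the list. *NRIP1* was 163, 84.5, 23.0 and 107 CPM in the same FS, with S1-12 as low as most other tumors. Its log2 fold change was 1.39 (SE 0.43, edgeR adjusted p = 0.0442), and 18 of 28 alternatives lost the call by adjusted p, with log2 fold changes from 1.00 to 1.72 over all 28.

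Of 7 tested genes listed as targets of retinoic acid, *HIC1* fell and *MEIS1* rose in FS, beside 9.46% of all genes called in that comparison. *HIC1*, a transcriptional repressor, was 16.4 CPM in S1-02, 16.4 CPM in S1-11, 3.29 CPM in S1-12 and 20.6 CPM in S2-06. Each was below the other 12 tumors, which lay between 24.0 and 99.5 CPM, and the log2 fold change was -1.94 (SE 0.41, edgeR adjusted p = 0.00537). *MEIS1*, a homeobox gene, was 27.8 to 34.6 CPM in FS, above the 2.53 to 24.7 CPM of the other tumors. Its log2 fold change was 1.22 (SE 0.34, edgeR adjusted p = 0.0281), and without S1-11, S1-12 or S2-06 in turn its adjusted p was 0.0794, 0.0541 and 0.0687 with edgeR, at log2 fold changes of 1.20, 1.21 and 1.18. The called targets thus moved in opposite directions, and the median log2 fold change of the 7 tested was -0.13. Of the 10 receptors tested that pair with retinoid X receptors, 0 were called in FS with edgeR. None had an unadjusted p under 0.05, beside 3915 of all 15408 genes. In PNST 0 of the 44 pathway genes were called with edgeR and 0 with DESeq2. With edgeR 6 had an unadjusted p under 0.05, beside 2415 of all 15408 genes.

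Without the 5 tumors with high epidermal markers, 3 of the 44 pathway genes were called in FS, beside 1020 of 13893 genes tested. *RDH10*, *DHRS9*, *CYP26B1*, *HIC1* and *MEIS1* were no longer called, with edgeR adjusted p from 0.0682 to 0.187 in the 11 tumors left. Their log2 fold changes there were -1.02, -2.06, 1.08, -1.56 and 1.45, each in the same direction and beyond 1. Grouped by histology, 0 of the 44 pathway genes were called in FS, where the fit called only 205 of all 15408 genes.

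**Figure D5:**
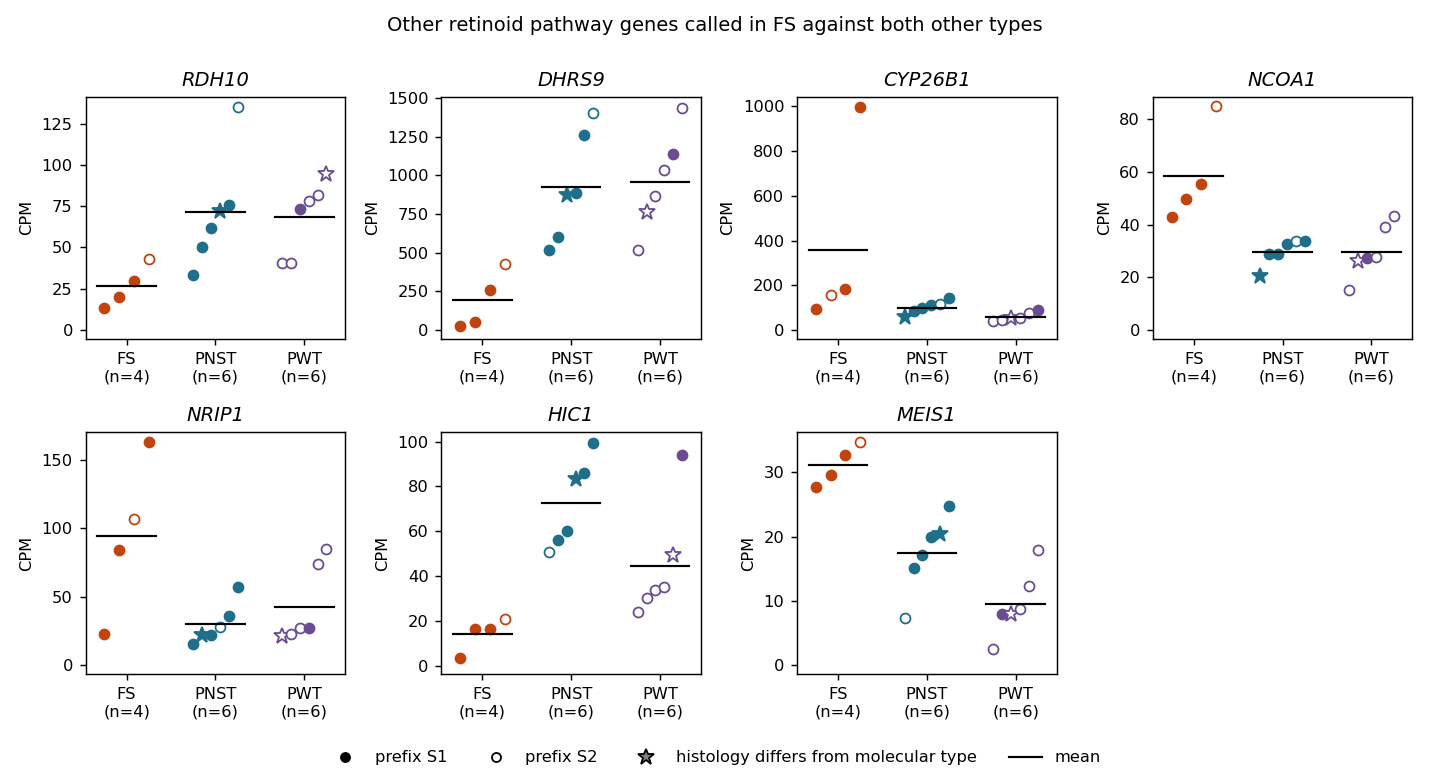
Level in CPM (vertical axis, from 0) of the 7 other pathway genes called in the comparison of FS with both others, with 1 symbol per tumor and a line at the mean of each type. Filled symbols have the prefix S1, open symbols the prefix S2, and stars are S1-10 and S2-08. *DHRS9*, *HIC1* and *MEIS1* separate all 4 FS from the other tumors, while the *CYP26B1* mean of FS is raised by S1-12 at 995 CPM. Of all genes tested, 3.16% separate the FS in this way.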

How the data were processed

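Total RNA from 16 tumors was depleted of ribosomal RNA and sequenced on an Ion Proton. The authors aligned reads to ROS-canfam-01 with STAR2 and deposited htseq-count read counts per gene, without normalization. Tool versions and the strand setting are not given in the sources used here, so overlapping genes are uncertain. The deposited counts in 34 run columns were summed to 16 tumors, and the 5 summary rows were left out, so that 22.9% to 30.6% of the reads listed remained.

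Differential expression was tested with edgeR 4.0.16 (R 4.3.3), TMM factors and the quasi-likelihood test, over the 15408 genes that reached 10 counts in 4 or more tumors, with Benjamini-Hochberg adjustment over all of them. A called gene had a log2 fold change beyond 1 in either direction and an adjusted p under 0.05. Standard errors were derived from the F statistic. Scripts were tested on simulated data. Alternatives were DESeq2 1.42.0, other factors and filters, the prefix as a term, histology groups and left-out tumors. Nearest genes are the 5 highest r with each of 3 called members, on log2 CPM with a prior count of 2. Pathway genes called against both other types, and a few fixed ones, are named, and some genes that these rules name are not reported here. The members, lists and rules were chosen with earlier results of these data known. Leaving out the 5 epidermal tumors and using 1 prefix alone were added after seeing the data. Intervals and limits from counts cover counting error only. P-values measure the spread between tumors of different dogs, except that S1-04 and S1-05 may share 1.

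The 9 members matched RefSeq by symbol. No sequences or coordinates were used here. The prefix was read from tumor names, and its meaning is not stated.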

Additional observations from a re-analysis of the deposited data

Results flagged for a closer look

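In 5 of 30 groups of levels examined, 1 tumor lay farther from the others than Dixon's 95% critical value allows. The chance rate of about 1 in 20 holds for normally distributed levels, which these are not known to be, so the 5 flags are not set against it. *RXRG* in the PNST S1-05 was 475 CPM, against 202 to 299 CPM in the other PNST. S1-04, which has the same labels as S1-05, was at 242 CPM. *RARA* in the PNST S1-09 was 172 CPM, against 89.6 to 117 CPM. *RXRB* in the PWT S2-03 was 23.2 CPM, against 41.3 to 51.0 CPM. *ALDH1A1* was 33.8 CPM in the FS S1-02, against 0 to 2.73 CPM in the other FS, and 6.73 CPM in the PWT S2-03, against 0 in the other PWT. With all other PWT at 0, any count in S2-03 would have been flagged, so the PWT flag carries no information. *ALDH1A1* also did not pass the count filter.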

How the results depend on the processing

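No paired analysis was possible because the labels give the types no shared replicate numbers. Of 1392 values under 29 alternatives, 1262 were unchanged. For fold changes this means the same direction and side of the threshold, which includes genes not called in either fit. For mean levels it means a shift smaller than the SD, and for counts of called genes a count close to the main one. With histology groups, which move S2-08 and S1-10, the members called were 1 for FS against both others, 0 for FS against PNST and 0 for FS against PWT. Over all 15408 genes, the histology fit called 205, 0 and 5 in these comparisons, so few or no calls were possible for any gene set. DESeq2 called 1 member in PWT. Pathway genes called in FS were 0 with histology groups, 3 without the epidermal tumors and 4 with prefix S1 alone, where fewer tumors were fitted. Over all genes, these fits called 205 of 15408, 1020 of 13893 and 825 of 14371. In PWT, the pathway genes called were 2 with DESeq2, beside 875 of all genes. They were 0 with the prefix term, histology groups, prefix S2 alone or no epidermal tumors. Those fits called 0 of all genes, so no other count was possible. Leaving out each tumor gave 3 to 3 members in FS, 0 to 0 in PNST, 0 to 1 in PWT (1 without S1-09 or S2-07), 3 to 3 for FS against PNST, 2 to 3 for FS against PWT and 0 to 0 for PNST against PWT. Pathway genes ranged from 4 (without S1-11 or S2-06) to 8 in FS, 0 to 0 in PNST and 0 (without S2-04 or S2-11) to 2 (without S2-07) in PWT. Over all genes, the PWT fits without S2-04, S2-11 and S2-07 called 14, 11 and 487.

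Some values changed sign, all in comparisons where the gene was not called. *RXRA* in FS was -0.0091 without a filter, -0.046 with the prefix term, -0.0945 without epidermal tumors, -0.11 with prefix S1 alone and -0.28 to 0.24 leaving out 1 tumor. *RARA* in FS was 0.0292 with RLE factors, 0.0503 with library totals, 0.0234 with 10 counts in 8 tumors, 0.0196 with DESeq2, 0.0187 with histology groups, 0.0243 without S1-10 and S2-08, 0.0055 with S1-04 and S1-05 merged and -0.33 to 0.25 leaving out 1 tumor. *RARG* in FS was -0.0352 with upper quartile factors, -0.0621 without a filter, -0.26 with the prefix term, -0.0662 without S1-10 and S2-08, -0.16 with prefix S1 alone and -0.36 to 0.28 leaving out 1 tumor. *RXRG* in PNST, 0.53 with all tumors, was -0.14 without epidermal tumors. *RXRB* in PWT was 0.20 with the prefix term and 0.51 with prefix S2 alone. *ALDH1A2* in PWT, 0.30 with all tumors, was -0.0038 to 0.94 leaving out 1 tumor. The causes were not tested. Depth limits *ALDH1A1*, *RARB* and the low FS levels of *RXRG* and *ALDH1A2*, which rest on few counts in some tumors. Prefix S1 alone holds 1 PWT and prefix S2 alone holds 1 FS and 1 PNST, so FS could be compared within S1 and PWT within S2.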

Other observations

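S1-04 and S1-05, both from a Standard Poodle with identical labels, differed in *ALDH1A2* (48.9 and 241 CPM, 4.93-fold) and *RXRG* (242 and 475 CPM, 1.97-fold), while the levels of *RARA*, *RARB*, *RARG* and *RXRB* differed by at most 1.19-fold in either direction. Between the 3 runs of a tumor, which only the S1 tumors had, the counts of the members varied little. Chi-square divided by its degrees of freedom had a median of 1.13 over 68 pairs of a member and a tumor. Of these pairs, 9 had an unadjusted p under 0.05 by the chi-square test.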
